A study of Mus musculus with 352 samples.

Results

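Krüppel-like factors were followed in mouse tibialis anterior muscle, a fast muscle of the lower leg, across genotypes, ages, feeding regimes and times of day. The 10 genes described here are Klf2, Klf3, Klf4, Klf5, Klf6, Klf7, Klf10, Klf11, Klf12 and Klf13. They were taken by symbol from a table of 14413 genes, and Klf9 and Klf15 of the same family were left aside. Gene levels had been measured by RNA sequencing in 352 C57BL/6 mice, which form 15 groups of 22 to 25 mice killed every 4 h at 6 times of day, given as zeitgeber time (ZT, counted in hours from the start of light), with 3 to 5 mice at each time.

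Wild-type mice (WT) and mice of the 4 Bmal1(stopFL/stopFL) genotypes were studied at 10 to 12 weeks and at 26 weeks with food ad libitum (ALF). In all 4 of those genotypes a removable stop element sits in both copies of Bmal1, the gene of a core clock activator. KO mice carry no Cre, Mu-RE mice carry Hsa-Cre (one transgenic copy, driven by a human skeletal actin promoter active in muscle fibres), Br-RE mice carry Syt10-Cre (one transgenic copy, active in brain), and RE-RE mice carry both. Cre removes the stop element only where it is active, so cells of the muscle that are not fibres keep it in Mu-RE mice. Time-restricted feeding (TRF) was applied to WT, Mu-RE and KO mice of 26 weeks and to wild-type mice of 85 to 116 weeks, called old below, which were also studied on ALF. The hours of feeding were not stated in the labels.

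Values are the deposited log2 FPKM (fragments per kilobase of exon, scaled to library size), so a difference of 1 is a doubling. Library depth, estimated from the steps between low values, ran from 14.6 to 47.6 M reads (M, mega), with a median of 22.3 M. Muscle fibre markers summed to between 20350 and 68230 FPKM in every library, against 22.3 to 147 FPKM for 8 endothelial markers and 1.95 to 31.2 FPKM for 6 macrophage markers. The tissue is whole muscle, so fewer cells of a type and less RNA per cell cannot be told apart. Bmal1 itself (Arntl) had a mean of 2.77 in WT and 3.42 in KO mice of 10 weeks. Its gene-wide level does not separate transcripts that stop at the inserted element, so it does not check the labels. Dbp, a direct clock target, differed between KO and WT by -2.71 at 10 weeks, -3.13 at 26 weeks and -2.89 on TRF. Of the 352 libraries, 9 had a median correlation with their own group under 0.94, and calls that changed without them are given after the comparison of ages. The labels name 1 mouse per library.

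Krüppel-like factors are transcription factors whose carboxy-terminal zinc fingers bind GC-rich and CACCC sequences, while their variable amino-terminal parts recruit different partners. Klf2 and Klf4 are switched on in endothelium by blood flow through the MEK5, ERK5 and MEF2 pathway, Klf6 is an early gene of injury and stress, and Klf10 and Klf11 are early genes of TGF-beta signalling that recruit the SIN3A corepressor. Klf13 also binds SIN3A, Klf3 and Klf12 recruit the CtBP corepressor, and Klf5 and Klf7 are mainly activators. In muscle, Klf3 works with SRF at the creatine kinase gene, Klf5 at lipid genes, and Klf2 and Klf4 in myoblast fusion. The heterodimer of BMAL1 and CLOCK binds E-boxes, most often of the letters CACGTG.

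Promoter sequence is shown for 4 members, Klf4, Klf6 and Klf11 because their RefSeq promoters hold the E-box, and Klf13 because its level depended most on genotype. RefSeq (GRCm38.p6) gave a promoter for 8 of the 10 members, and the E-box was counted in the 250 bases before the start on both strands. Capitals mark the E-box, and each sequence ends before the first annotated exon, 5′ to 3′ on the strand of the gene. Klf4 is read from chr4:55532476-55532725 on the minus strand, Klf6 from chr13:5861239-5861481 on the plus strand, Klf11 from chr12:24651121-24651273 on the plus strand and Klf13 from chr7:63938916-63939165 on the minus strand.
Klf4: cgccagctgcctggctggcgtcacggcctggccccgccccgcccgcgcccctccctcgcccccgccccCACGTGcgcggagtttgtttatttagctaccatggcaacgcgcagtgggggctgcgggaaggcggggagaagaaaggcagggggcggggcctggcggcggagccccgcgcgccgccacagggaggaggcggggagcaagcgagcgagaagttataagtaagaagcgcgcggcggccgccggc
Klf6: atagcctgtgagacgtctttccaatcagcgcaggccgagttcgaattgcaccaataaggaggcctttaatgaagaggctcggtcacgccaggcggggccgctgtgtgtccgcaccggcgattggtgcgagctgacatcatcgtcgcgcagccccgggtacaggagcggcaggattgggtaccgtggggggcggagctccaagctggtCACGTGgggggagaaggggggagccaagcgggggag
Klf11: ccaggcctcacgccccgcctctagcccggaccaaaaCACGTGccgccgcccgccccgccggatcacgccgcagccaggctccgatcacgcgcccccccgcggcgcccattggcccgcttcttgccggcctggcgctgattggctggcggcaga
Klf13: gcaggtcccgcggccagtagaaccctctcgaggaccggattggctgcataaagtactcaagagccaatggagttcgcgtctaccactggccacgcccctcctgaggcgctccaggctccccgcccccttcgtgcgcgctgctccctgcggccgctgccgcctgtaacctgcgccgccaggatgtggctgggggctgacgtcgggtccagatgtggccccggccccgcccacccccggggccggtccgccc
The E-box CACGTG lies 182 bases before the RefSeq start in Klf4, 43 bases in Klf6 and 214 bases in Klf11. Of 32851 mouse promoters of the same length, 6.02% hold it. Klf13 holds no E-box in this window and has 3 matches to the GC box GGGCGG, which 32.7% of promoters hold, and 1 to the letters CACCC, which 52.0% hold. A match is a description of letters and no evidence of binding.

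FPKM corrects for exon length, which ran from 1847 bp in Klf2 to 11243 bp in Klf3. Klf10 (ENSMUSG00000037465, chr15:38291463-38300706) had the highest mean level, 2.57 on the log2 scale or 5.94 FPKM, followed by Klf6 (ENSMUSG00000000078, chr13:5861482-5870394) at 2.52 and Klf2 (ENSMUSG00000055148, chr8:72319033-72321656) at 2.41. In the middle stood Klf13 (ENSMUSG00000052040, chr7:63886351-63938915) at 1.71 and Klf4 (ENSMUSG00000003032, chr4:55527143-55532466) at 1.37. Klf3 (ENSMUSG00000029178, chr5:64803388-64832901) averaged 0.22. The other 4 had mean levels under 1 FPKM: Klf12 (ENSMUSG00000072294, chr14:99870632-100284679) -0.01, Klf5 (ENSMUSG00000005148, chr14:99298691-99315036) -0.12, Klf11 (ENSMUSG00000020653, chr12:24651274-24662789) -0.18 and Klf7 (ENSMUSG00000025959, chr1:64029447-64122282) -0.56. Coordinates are those of GENCODE vM21 on GRCm38. These 4 did not pass the filter of a mean of 1 FPKM that 9862 genes passed, so their tests come from a fit of all 14413 genes and their p-values are adjusted over those. Exons of Klf3 and Klf7 overlap antisense genes (Gm20033 and Gm26649), and no source used here says whether the counting used strand, so their reads cannot be told apart from those of the antisense genes.

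Across the 11 groups of WT, old, KO and Mu-RE mice, no member's group means spanned more than 2.03-fold. Klf4 had that span, from 1.76 ± 0.99 (SD, n = 23) in WT of 10 weeks to 0.74 ± 0.51 (SD, n = 23) in Mu-RE mice on TRF. Klf5 had the smallest span of the 10, 1.51-fold. When the 11 group means of a member were put in order, 1 step between neighbours was larger than their SD, in Klf13 between Mu-RE mice on TRF at 1.73 ± 0.26 (SD, n = 23) and KO mice of 10 weeks at 1.43 ± 0.27 (SD, n = 23). The 3 KO groups were therefore the lowest 3 of 11 for Klf13. For the other 9 members, no neighbours in the order differed by more than their spread. Br-RE and RE-RE levels were left out of this order, since the deposited values had been centred so that these 2 genotypes together have the same gene means as the other libraries of their age.

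**Figure D1:**
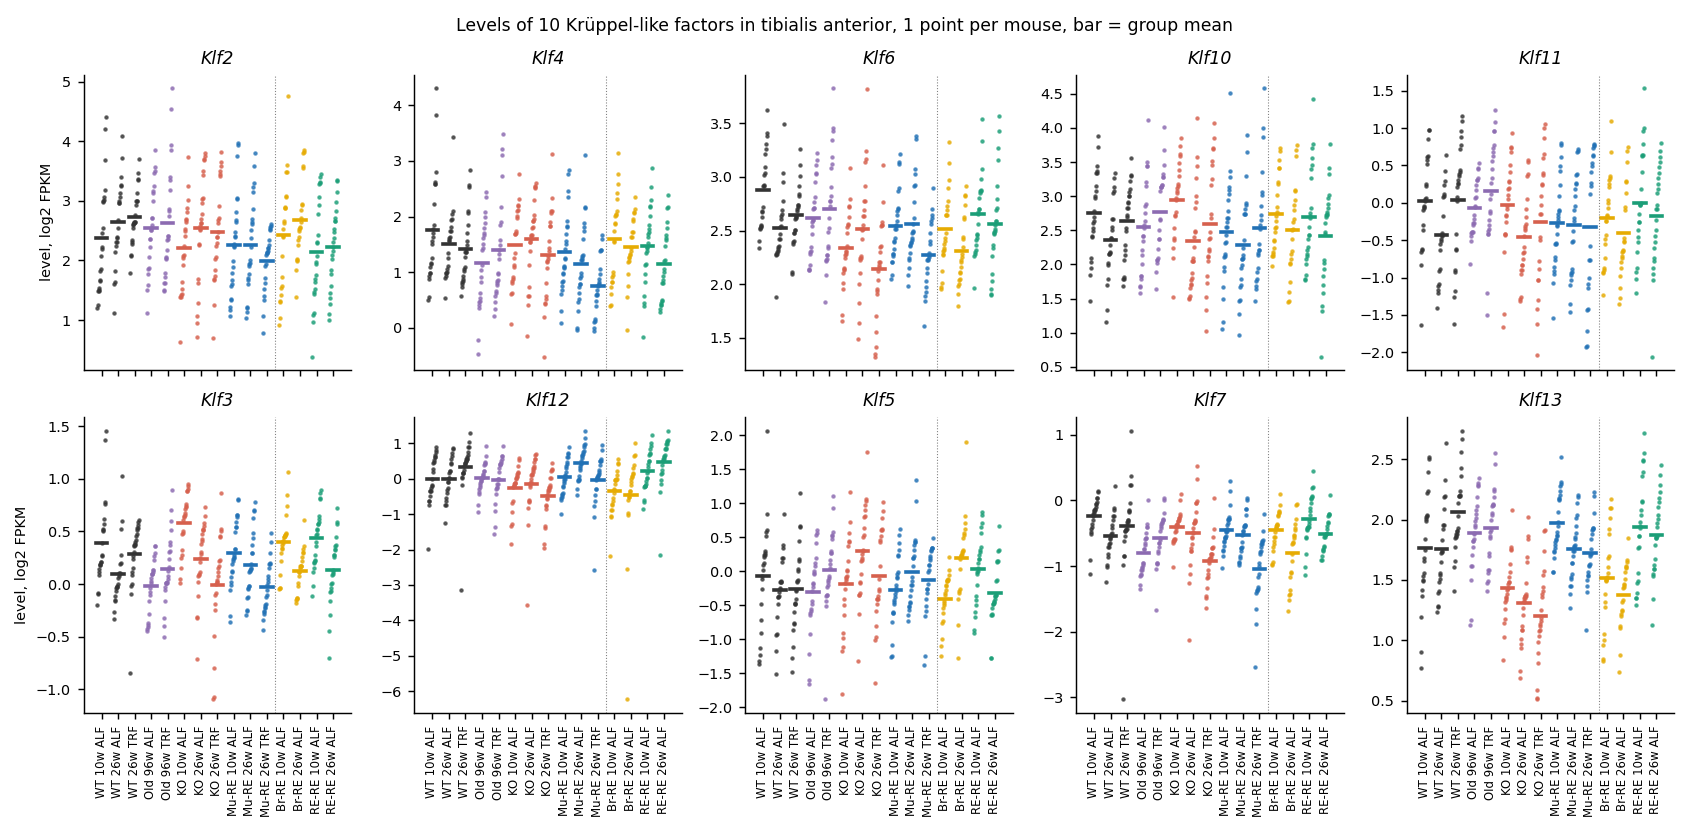
Level of each of the 10 Krüppel-like factors (log2 FPKM, vertical axis) in the 15 groups, 1 point per mouse and a bar at each group mean. Groups right of the dotted line (Br-RE and RE-RE) were centred separately from the rest. Klf13 is lowest in the 3 KO groups, with means of 1.43, 1.31 and 1.20, while the points of every member overlap between most groups.

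Klf13 was lower in every KO group than in the matching WT group and higher where Bmal1 was restored in muscle. KO against WT asks what depends on Bmal1 anywhere in the body, Mu-RE against KO what its return to muscle fibres changes, and RE-RE against Br-RE the same in mice with Bmal1 in the brain. At 10 weeks Klf13 had a lowest value of 0.77, a median of 1.75 and a highest of 2.52 in WT mice, and 0.83, 1.43 and 2.08 in KO mice. At 26 weeks these values were 1.24, 1.73 and 2.64 in WT and 0.69, 1.34 and 2.02 in KO. On TRF they were 1.41, 1.98 and 2.74 in WT and 0.51, 1.16 and 1.92 in KO. The ranges overlapped in all 3 comparisons, and the medians of KO lay below those of WT in each. On the log2 scale Klf13 was lower in KO by -0.32 (SE 0.086, adjusted p = 0.0023) at 10 weeks, -0.44 (SE 0.090, 7.1e-05) at 26 weeks and -0.86 (SE 0.093, 1.1e-10) on TRF, or 0.549-fold, by limma with Benjamini-Hochberg adjustment over 9862 genes.

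With Bmal1 in muscle fibres, Klf13 was 0.55 (SE 0.061, adjusted p = 4.3e-10) above KO at 10 weeks, 0.44 (SE 0.088, 7.9e-05) at 26 weeks and 0.52 (SE 0.095, 1.9e-05) on TRF by limma. Its lowest, median and highest values in Mu-RE mice were 1.56, 1.90 and 2.51 at 10 weeks, 1.27, 1.76 and 2.21 at 26 weeks, and 1.08, 1.71 and 2.23 on TRF. These comparisons share the KO mice with the ones before, so they are not independent of them. Klf13 in RE-RE mice was above Br-RE by 0.43 (SE 0.092, adjusted p = 0.00022) at 10 weeks and 0.51 (SE 0.066, 3.1e-08) at 26 weeks, comparisons that share no mice with the others. The lowest, median and highest values were 0.83, 1.52 and 2.17 in Br-RE and 1.29, 1.94 and 2.72 in RE-RE mice of 10 weeks, and 0.74, 1.44 and 1.85 against 1.12, 1.86 and 2.45 at 26 weeks. The median of the RE-RE mice of 26 weeks lay just above the highest Br-RE mouse, and the ranges overlapped at both ages. Against WT, Klf13 in Mu-RE mice was 0.23 (SE 0.074, adjusted p = 0.016) higher at 10 weeks and 0.00 (SE 0.071) different at 26 weeks. All 8 Klf13 differences of KO against WT, Mu-RE against KO and RE-RE against Br-RE passed the threshold under each alternative run.

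**Figure D2:**
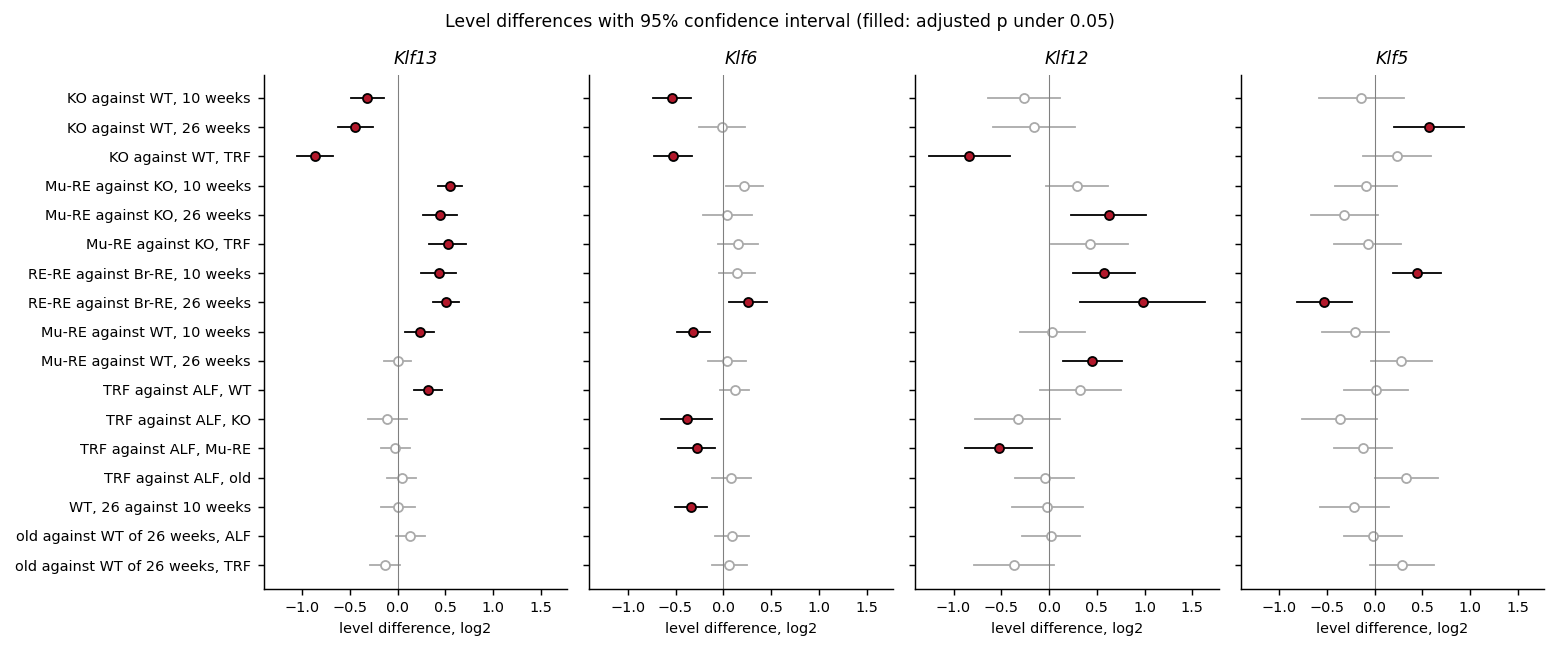
Level difference (log2, horizontal axis) of Klf13, Klf6, Klf12 and Klf5 in the 17 comparisons, with bars for the 95% confidence interval and filled points where the adjusted p is under 0.05. Klf13 lies left of 0 in the 3 KO against WT comparisons and right of 0 in the 5 comparisons that add Bmal1 to muscle, while Klf5 lies on opposite sides of 0 in RE-RE against Br-RE mice at 10 and 26 weeks.

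Klf6 was lower in KO than in WT mice at 10 weeks and on TRF, and not at 26 weeks on ALF. At 10 weeks its lowest, median and highest values were 2.34, 2.92 and 3.62 in WT and 1.66, 2.30 and 3.08 in KO mice. At ZT 16 the 4 WT values, 3.04, 3.31, 3.38 and 3.62, were all above the 4 KO values, 2.14, 2.14, 2.47 and 2.72, while over the day as a whole the groups overlapped. On TRF the values were 2.10, 2.63 and 3.26 in WT and 1.32, 2.18 and 3.11 in KO. The Klf6 difference was -0.54 (SE 0.097, adjusted p = 1.4e-05) at 10 weeks, -0.53 (SE 0.097, 1.5e-05) on TRF and -0.01 (SE 0.12, 0.95) at 26 weeks on ALF by limma. Mu-RE mice did not differ from KO in Klf6 past the threshold (0.22, 0.04 and 0.16 at 10 weeks, 26 weeks and on TRF) and were below WT at 10 weeks by -0.31 (adjusted p = 0.0058), where 4 of 4 tested macrophage markers were also lower (median -1.04, summed levels of 3.78 to 14.4 FPKM in Mu-RE against 8.13 to 31.2 FPKM in WT); their part in the result was not tested. RE-RE mice of 26 weeks were 0.26 above Br-RE mice (adjusted p = 0.035), a call kept in 1 of the 4 fits that each leave out 1 mouse per time.

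Of the 6 members tested with the filter, 2 were called in KO against WT at 10 weeks, where 41.8% of all kept genes were called, 1 at 26 weeks (46.3%) and 3 on TRF (51.8%). All 6 of those calls were lower in KO, a direction in which 21.6%, 22% and 26.9% of kept genes were called. In Mu-RE against KO, 3 of 6 were called at 10 weeks (34.6% of kept genes), 1 at 26 weeks (33.9%) and 2 on TRF (36.5%). RE-RE against Br-RE gave 1 of 6 at 10 weeks (32.2%) and 2 at 26 weeks (35.3%), and Mu-RE against WT 2 at 10 weeks (26.5%) and 0 at 26 weeks, where 30.8% of kept genes were called. In that last comparison 4100 kept genes had an unadjusted p under 0.05 by limma. For calls in either direction, the members' shares were near or below those of genes at large in these comparisons, apart from Mu-RE against KO at 10 weeks. For calls lower in KO than in WT, the 2 of 6 at 10 weeks and 3 of 6 on TRF stood above the shares of kept genes. The 1 of 6 at 26 weeks stood below. Over the 17 level comparisons, Klf13 was called in 10, Klf6 in 7, Klf12 in 6, Klf7 in 5, Klf3 and Klf5 in 3 each, Klf11 in 2, Klf4 and Klf10 in 1 each, and Klf2 in 0. The median difference of the 6 kept members was -0.21, -0.01 and -0.28 in the 3 KO against WT comparisons, while that of all kept genes lay between -0.026 and 0.016 in every comparison.

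Of the 4 members under 1 FPKM, 0 were called in KO against WT at 10 weeks (36.8% of all 14413 genes, fit without the filter), 1 at 26 weeks (42%) and 2 on TRF (45.3%). Of the same 4, 0 were called in Mu-RE against KO at 10 weeks (28.7%) and on TRF (31.3%), and in Mu-RE against WT 0 at 10 weeks (23%) and 1 at 26 weeks (26.1%), Klf12 with 0.45 (adjusted p = 0.024). That Klf12 call was lost with the slope of each library's deviations on log exon length (the length slope) in the model (0.12, adjusted p = 0.56) and kept in 1 of the 4 fits that each leave out 1 mouse per time (0.41 to 0.51). Klf12, a repressor that binds CtBP, was lower in KO on TRF by -0.83 (SE 0.21, adjusted p = 0.0012), with lowest, median and highest values of -3.13, 0.46 and 1.29 in WT and -1.97, -0.32 and 0.43 in KO. The ranges overlapped. Klf12 was higher in Mu-RE than in KO mice of 26 weeks by 0.62 (adjusted p = 0.013; 29.3% of all genes called, 1 of these 4 members) and in RE-RE than in Br-RE mice by 0.58 (0.0052; 26.7%, 2 members) at 10 weeks and 0.98 (0.017; 30.8%, 3 members) at 26 weeks. One Br-RE mouse of 26 weeks had a Klf12 value of -6.24, and without that library the difference was 0.68 (adjusted p = 0.010). The 26-week difference of Klf12 between RE-RE and Br-RE mice was called in 2 of the 4 fits that each leave out 1 mouse per time (0.549 to 1.404). Their 10-week difference was lost with the length slope (0.38, adjusted p = 0.060). At 26 weeks lowest, median and highest Klf12 values were -0.46, 0.47 and 1.34 in Mu-RE and -3.57, 0.10 and 0.69 in KO mice. The difference between Mu-RE and KO mice of 26 weeks was called in 3 of the 4 fits that each leave out 1 mouse per time (0.52 to 0.69). Klf7, an activator, was lower in KO on TRF by -0.55 (adjusted p = 0.0031) and higher in RE-RE than in Br-RE mice of 26 weeks by 0.29 (0.046), which became 0.24 (0.087) without the same library.

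Klf5, a regulator of smooth muscle and of lipid genes in muscle, had no common direction. It was higher in KO than in WT mice of 26 weeks by 0.57 (SE 0.18, adjusted p = 0.0097), with lowest, median and highest values of -1.51, -0.25 and 0.85 in WT and -1.33, 0.28 and 1.76 in KO. That call was kept in 2 of the 4 fits that each leave out 1 mouse per time (0.37 to 0.70). In RE-RE against Br-RE mice Klf5 was 0.44 higher at 10 weeks (adjusted p = 0.0052) and 0.53 lower at 26 weeks (difference -0.53, 0.0036); the 10-week call was lost with the length slope (0.26, adjusted p = 0.074). In the comparison of Klf5 between KO and WT mice of 26 weeks, 7 of 8 endothelial markers were also higher in KO, with a median of 0.64 and summed levels of 46.9 to 141 FPKM in KO against 22.3 to 87.2 FPKM in WT; their part in the result was not tested. Over the 352 libraries the residuals of Klf5 and of the mean of the endothelial markers had a Pearson correlation of 0.41. That value was not particular to Klf5: the other members had 0.07 (Klf12) to 0.52 (Klf3), with 0.41 for Klf2 and 0.39 for Klf13.

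Klf3 was lower in Mu-RE than in KO mice of 10 weeks by -0.28 (adjusted p = 0.0073), where 6 of 8 endothelial markers were also lower, with summed levels of 60.2 to 104 FPKM in Mu-RE against 65.3 to 117 FPKM in KO mice, and in KO than in WT mice on TRF by -0.31 (0.026). Klf10 was lower in Mu-RE than in KO mice of 10 weeks by -0.48 (0.032), and Klf4 on TRF by -0.55 (0.017). Of the 4 fits that each leave out 1 mouse per time, 2 kept each of these calls of Klf3, Klf10 and Klf4. In those 4 fits the Mu-RE against KO differences ran from -0.38 to -0.19 for Klf3, -0.60 to -0.20 for Klf10 and -0.66 to -0.51 for Klf4. The endothelial markers' part in the Klf3 result was not tested. Lowest, median and highest values of Klf3 were -0.36, 0.26 and 0.81 in Mu-RE and 0.01, 0.65 and 0.95 in KO mice of 10 weeks. Those of Klf10 were 1.05, 2.55 and 4.51 in Mu-RE and 1.52, 3.05 and 3.86 in KO mice, and those of Klf4 on TRF -0.06, 0.75 and 1.67 in Mu-RE and -0.52, 1.29 and 3.12 in KO mice. All 3 pairs of ranges overlapped. Without a term for sex the Klf10 call was lost (-0.46, adjusted p = 0.051). Klf2, the flow-induced factor of endothelium, was not called in any level comparison, and its largest difference was -0.48 (SE 0.20, adjusted p = 0.055) in Mu-RE against KO mice on TRF. That Klf2 difference passed with libraries centred on their median (-0.50, 0.044), with log2(FPKM + 1) (-0.41, 0.044) and in 1 of the 4 fits that each leave out 1 mouse per time (-0.64, 0.015). In RE-RE against Br-RE mice of 26 weeks Klf2 had a difference of -0.47 (SE 0.19, adjusted p = 0.054), which passed without the term for sex (0.0499), with the length slope (0.045), with the times as a factor (0.034) and in 1 of those 4 fits (0.043).

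On TRF the KO against WT differences of Klf3, Klf7 and Klf12 were lost when the length slope was added to the model (-0.03, -0.28 and -0.30), while Klf13 (-0.72) and Klf6 (-0.44) kept theirs. That slope averaged 0.016 in WT and -0.045 in KO mice on TRF (log2 per doubling of exon length), and the 3 genes have exons of 11243, 8131 and 6985 bp against a median of 4151 bp. The cause was not tested. Macrophage markers were lower in KO in the same comparisons as Klf6 and Klf13: 4 of 4 tested at 10 weeks (summed levels of 2.29 to 13.8 FPKM in KO, 8.13 to 31.2 FPKM in WT), 3 of 4 at 26 weeks (2.73 to 12.2 against 4.29 to 17.6 FPKM) and 3 of 4 on TRF (2.17 to 12.5 against 6.59 to 16.0 FPKM). No macrophage marker was called in Mu-RE against KO on ALF, where Klf13 was higher, and 1 was lower on TRF. Of 5 smooth muscle and pericyte markers, 2 were higher and 1 lower in KO at 10 weeks, 3 higher at 26 weeks (summed levels of 93.8 to 199 FPKM in KO and 85.9 to 184 FPKM in WT) and 4 lower on TRF (median -0.51, 84.4 to 162 FPKM in KO and 109.6 to 177 FPKM in WT). Of 8 endothelial markers, 5 were higher at 10 weeks and 7 at 26 weeks, and on TRF 1 was higher and 2 were lower. The part of these markers in the KO against WT results was not tested.

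Klf13 was called rhythmic over 24 h in more groups than any other member, 6 of 15. A cosine and sine of 24 h were fitted in each group by limma, and amplitude is the distance from the daily mean to the peak on the log2 scale. Values printed for single times were picked as high and low ones, so their separation is no further test of a rhythm. In WT mice of 10 weeks Klf13 was highest at ZT 12 (2.01, 2.22, 2.40 and 2.52) and lowest at ZT 0 (0.77, 0.91 and 1.66) and ZT 8 (1.20, 1.37, 1.42 and 1.49). Every mouse at ZT 12 and ZT 16 stood above every mouse from ZT 0 to ZT 8 in that group. The Klf13 amplitude was 0.48 (SE 0.096, adjusted p = 0.011) with the peak at ZT 14.5 in WT of 10 weeks and 0.38 (SE 0.072, 0.017) with the peak at ZT 15.4 in WT of 26 weeks. It was 0.28 (0.011) at ZT 17.6 in Mu-RE mice of 10 weeks and 0.34 (0.023) at ZT 16.7 in RE-RE mice of 26 weeks. Not called were 0.27 at ZT 17.2 in old mice on ALF, 0.24 at ZT 14.9 in Br-RE of 26 weeks and 0.33 at ZT 15.8 in RE-RE of 10 weeks. Their unadjusted p by limma was 0.0053, 0.0031 and 0.013, beside 0.0051 in WT on TRF, which was called. Calls also depend on how many genes were rhythmic in a group, so a missing call does not show a missing rhythm. Mu-RE mice of 26 weeks had 0.08 on ALF and 0.08 on TRF, neither called.

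Br-RE mice of 10 weeks, which have the stop element in their muscle fibres, also had a Klf13 rhythm, with an amplitude of 0.44 (SE 0.075, adjusted p = 0.0019 by limma) and a peak at ZT 16.7. Their 4 values at ZT 16 were 2.02, 2.09, 2.10 and 2.17, above all of the other 19 Br-RE mice of that age, and the 3 values at ZT 8 were 0.85, 0.96 and 1.28. The Br-RE amplitude passed the threshold under each alternative run. In that group 29% of kept genes were rhythmic, against 5.84% in WT of 10 weeks, 1.04% in WT of 26 weeks, 0.071% in Mu-RE mice of 10 weeks and 0.76% in RE-RE mice of 26 weeks. In KO mice the Klf13 amplitudes were 0.12 at 10 weeks and 0.11 at 26 weeks, not called, among 0.071% and 0% of kept genes called (596 kept genes had an unadjusted p under 0.05 at 26 weeks). The difference between the KO and WT rhythms of Klf13 was itself not called (adjusted p = 0.47 at 10 weeks and 0.80 at 26 weeks, where 0.517% and 0.172% of kept genes were called), nor was that between Br-RE and KO (0.15 at 10 weeks, 0.913%). Fitted with the times as a factor in place of a cosine, Klf13 kept its rhythm in WT and Br-RE mice of 10 weeks, and not in WT of 26 weeks (adjusted p = 0.18), Mu-RE of 10 weeks (0.11), RE-RE of 26 weeks (0.066) or WT on TRF (0.071). Of the 4 fits that each leave out 1 mouse per time, 1 called the Klf13 rhythm in WT of 10 weeks (amplitudes of 0.37 to 0.56), 1 in WT of 26 weeks (0.33 to 0.42), 0 in Mu-RE mice of 10 weeks (0.25 to 0.30) and 0 in RE-RE mice of 26 weeks (0.29 to 0.38).

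**Figure D3:**
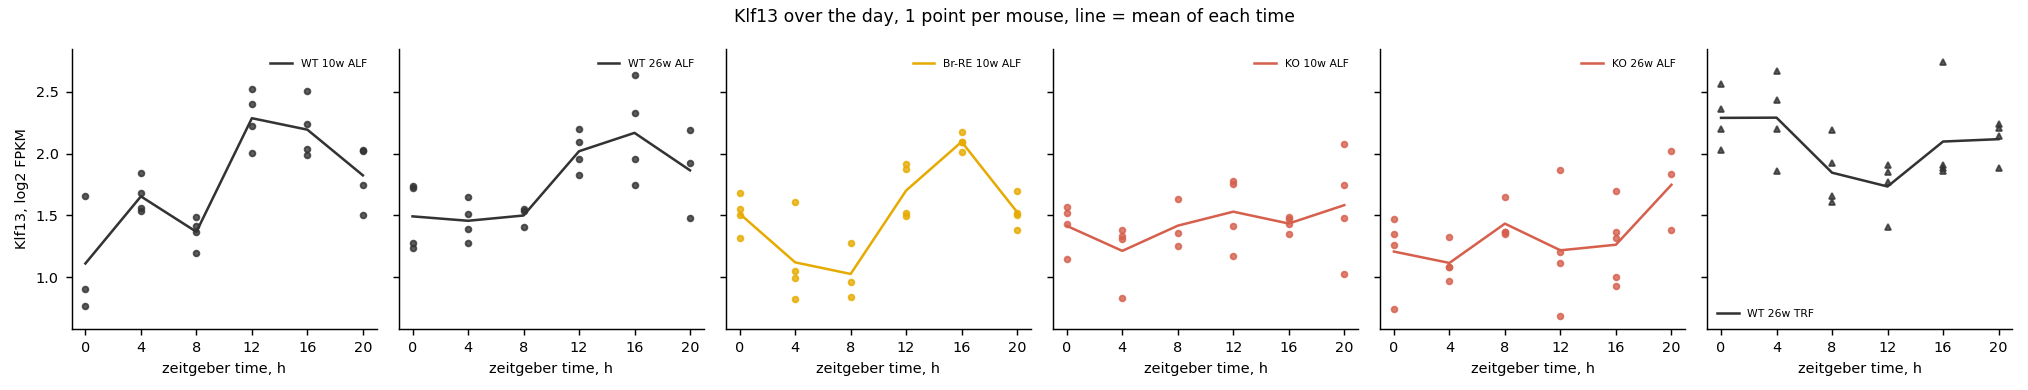
Klf13 level (log2 FPKM, vertical axis) against zeitgeber time (h) in 6 groups, 1 point per mouse and a line through the mean of each time. WT and Br-RE mice of 10 weeks peak at ZT 12 and ZT 16, the KO groups have no called rhythm, and WT mice on TRF are highest at ZT 0 and ZT 4.

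Under TRF the Klf13 rhythm of WT mice had another fitted peak time. At ZT 12 the WT mice on TRF had 1.41, 1.77, 1.85 and 1.90, and at ZT 0 they had 2.03, 2.19, 2.36 and 2.56, so that every mouse at ZT 0 stood above every mouse at ZT 12. On ALF at 26 weeks the order was the opposite, with 1.83, 1.96, 2.09 and 2.19 at ZT 12 and 1.24, 1.28, 1.72 and 1.74 at ZT 0. The fitted amplitude was 0.25 (SE 0.068, adjusted p = 0.019) with the peak at ZT 24.0 (SE 1.1 h) on TRF, against ZT 15.4 (SE 0.78 h) on ALF. The difference between the 2 rhythms was called (0.57 as the length of the vector between them, adjusted p = 0.0081 by limma, with 3.92% of kept genes called). Of the 4 fits that each leave out 1 mouse per time, 2 kept that call, and it was lost with the replicate number as a block. The test takes amplitude and peak time together, so peak time alone was not tested. The TRF rhythm of Klf13 in WT mice was itself called in 2 of those 4 fits (0.22 to 0.27). In old mice on TRF the Klf13 peak was at ZT 16.3 with an amplitude of 0.26 (adjusted p = 0.064), and in KO mice on TRF at ZT 4.1 with 0.25 (0.24), neither called. In WT mice on TRF 37.8% of kept genes were rhythmic. Markers called there were 7 of 8 endothelial, 3 of 5 smooth muscle and pericyte, 3 of 6 muscle fibre and 0 of 4 macrophage markers. The endothelial Kdr, Cdh5, Tie1 and Vwf peaked at ZT 1.6, 2.5, 2.9 and 3.4. The part of these markers in the Klf13 result was not tested.

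Klf10 and Klf11, the TGF-beta early genes, were called rhythmic in WT mice on TRF, and Klf11 also in Mu-RE mice on TRF. These rhythms peaked in the light phase. In WT mice on TRF Klf11 was -1.26, -0.90, -0.61 and -0.42 at ZT 0 and 0.72, 0.96, 1.09 and 1.17 at ZT 8. The 12 mice from ZT 4 to ZT 12 spanned 0.25 to 1.17, and the mice at ZT 0 were all below them. Its amplitude was 0.86 (SE 0.14, adjusted p = 0.00033 by limma over 14413 genes) with the peak at ZT 8.2, a 3.28-fold change from trough to peak. In that group 29.6% of all genes and 37.8% of kept genes were rhythmic, so rhythm as such was common there. Amplitudes of like size on ALF were not called by the cosine. RE-RE mice of 26 weeks had 0.65 for Klf10 (adjusted p = 0.15, ZT 0.7) and 0.66 for Klf11 (0.091, ZT 1.6). Br-RE mice of 26 weeks had 0.50 (0.27, ZT 3.4) and 0.60 (0.12, ZT 5.4). In WT of 10 weeks Klf11 had 0.42 (0.27, ZT 7.6), called with the times as a factor in place of a cosine (0.028).

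Klf11 had its largest amplitude in Mu-RE mice on TRF, 1.15 (SE 0.14, adjusted p = 0.00017) with the peak at ZT 7.5, or 4.93-fold. The 4 values at ZT 16 were -1.91, -1.71, -1.44 and -0.58 and those at ZT 20 were -1.93, -1.42, -1.14 and -0.77. From ZT 4 to ZT 12 the 11 mice had 0.11 to 0.79, so every mouse of those times stood above every mouse at ZT 16 and ZT 20. Of all genes, 5.17% were rhythmic in that group, and 6.97% of kept genes. On ALF the Klf11 amplitude in Mu-RE mice of 26 weeks was 0.13 and not called, where 0% of kept genes were called and 1253 kept genes had an unadjusted p under 0.05. The difference between the TRF and ALF rhythms was called in Mu-RE mice (1.17, adjusted p = 0.013, with 3.27% of all genes called) and not in WT mice (0.73, adjusted p = 0.12, 2.23%). The call in Mu-RE mice was kept in 2 of the 4 fits that each leave out 1 mouse per time (1.101 to 1.258). KO mice on TRF had a Klf11 amplitude of 0.62 (SE 0.24, adjusted p = 0.18, peak ZT 5.6; 2.5% of all genes) and old mice on TRF of 0.57 (SE 0.16, 0.10, peak ZT 6.6; 4.55%), and the KO rhythm was not called different from that of WT on TRF (adjusted p = 0.59, with 0.506% of all genes called). The 4 KO mice at ZT 0 ranged from -1.43 to 1.06, a spread wider than at ZT 0 in WT.

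Klf10 followed the same hours in WT mice on TRF. It was 1.69, 1.78, 2.07 and 2.28 at ZT 0 and 2.83, 3.01, 3.10 and 3.32 at ZT 8, with no overlap. The Klf10 amplitude was 0.51 (SE 0.11, adjusted p = 0.0029) with the peak at ZT 8.6, or 2.03-fold. In Mu-RE mice on TRF it was 0.59 (SE 0.21, adjusted p = 0.18, and 0.025 with the times as a factor), with 3.05, 3.99 and 4.59 at ZT 12 as the highest values. WT mice of 26 weeks on ALF had a Klf10 amplitude of 0.11 (SE 0.17), not called. The TRF and ALF rhythms of Klf10 in WT mice were not called different, where 3.92% of kept genes were called. Of all 23 rhythm comparisons of Klf10, 0 were called. The Klf10 rhythm of WT and both Klf11 rhythms on TRF passed the threshold under each alternative run. Residuals of Klf10 and Klf11 from the group and time means had a Pearson correlation of 0.72 over the 352 libraries, which share their depth and RNA for both genes.

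**Figure D4:**
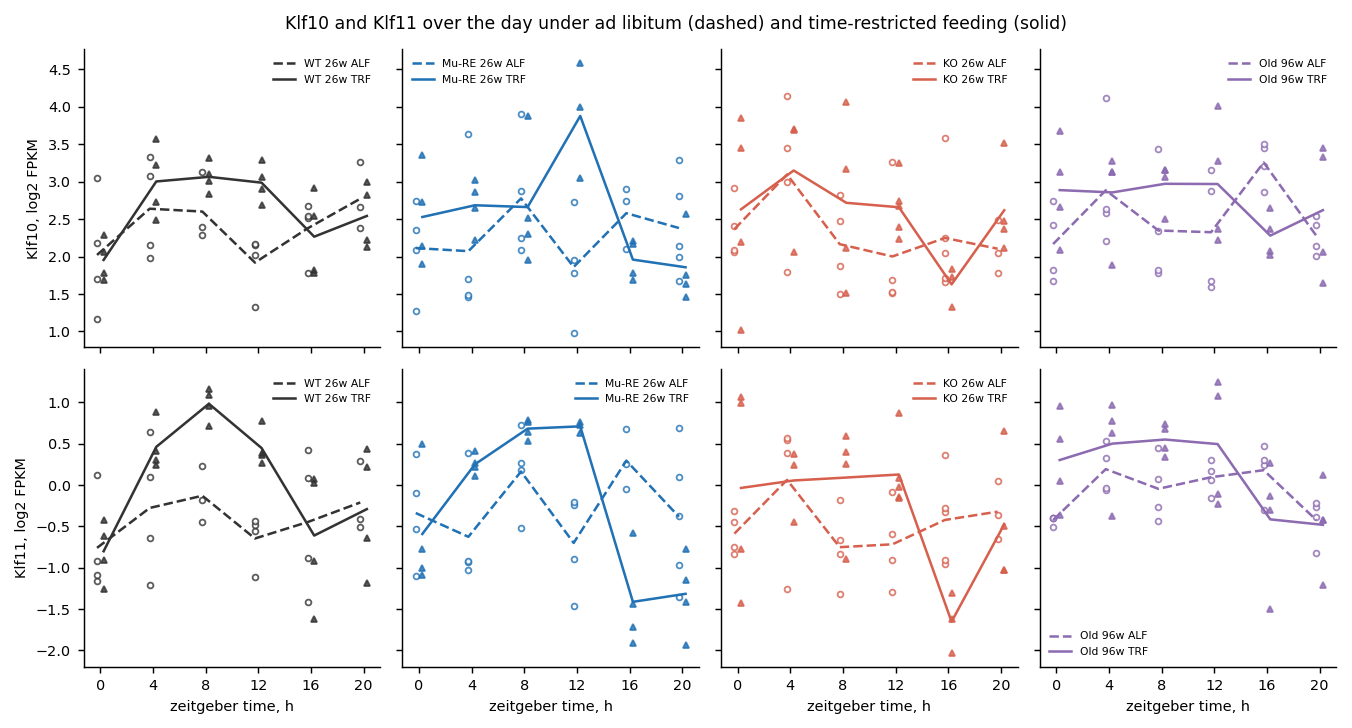
Klf10 and Klf11 levels (log2 FPKM, vertical axes) against zeitgeber time (h) in old, WT, Mu-RE and KO mice, with open circles and dashed lines of means for ALF and filled triangles and solid lines for TRF, 1 point per mouse. On TRF, Klf11 in WT and Mu-RE mice stands high from ZT 4 to ZT 12 and low at ZT 0 in WT and at ZT 16 and ZT 20 in Mu-RE mice.

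Klf2 and Klf4, the flow-induced factors, were high at ZT 16 in WT mice of 10 weeks. Klf2 was 3.07, 3.68, 4.20 and 4.40 at ZT 16 and 1.49, 1.49, 1.51 and 2.07 at ZT 4, and Klf4 was 2.59, 2.79, 3.82 and 4.31 at ZT 16 and 0.99, 1.14, 1.70 and 1.85 at ZT 4. All 4 mice at ZT 16 were above all 4 at ZT 4 for both genes. The Klf2 amplitude was 0.82 (SE 0.21, peak ZT 15.9, 3.12-fold, adjusted p = 0.049), a call lost without the filter (0.058) and in each of the 4 fits that each leave out 1 mouse per time. Klf4 had 0.63 (SE 0.25, adjusted p = 0.26) by the cosine and was called with the times as a factor (0.020), as was Klf2 (0.0066). Of the other groups, the time factor called both Klf2 and Klf4 in Br-RE mice of 10 weeks and in old mice on ALF, and Klf2 in RE-RE mice of 10 weeks. In KO mice of 26 weeks on ALF the Klf2 amplitude was 0.87 (SE 0.20, peak ZT 18.3, unadjusted p = 0.00074 by limma), and not called after adjustment (0.81). The Klf2 values of these KO mice were 3.50, 3.68 and 3.81 at ZT 20 and 0.72, 1.61, 2.51 and 2.53 at ZT 4. These were picked as a high and a low time, so their separation is no test of a rhythm. In that group 0% of kept genes were called rhythmic, and the time factor did not call Klf2 there. Klf4 had an amplitude of 0.60 (SE 0.17, peak ZT 17.4, adjusted p = 0.81) in the same mice.

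Klf6 was rhythmic in old mice on TRF, with an amplitude of 0.50 (SE 0.10, peak ZT 13.7, 2.00-fold, adjusted p = 0.013; 5.71% of kept genes rhythmic). Its 4 values were 1.83, 2.23, 2.23 and 2.36 at ZT 4 and 2.61, 2.73, 3.43 and 3.83 at ZT 12, with no overlap. With the times as a factor this Klf6 rhythm was not called (adjusted p = 0.11), and 2 of the 4 fits that each leave out 1 mouse per time kept it. In WT mice on TRF the Klf6 amplitude was 0.20 (SE 0.066, peak ZT 14.9, adjusted p = 0.048), and that call was lost without the filter, without the term for sex and with libraries centred on their median. Klf7 was rhythmic in Br-RE mice of 10 weeks with an amplitude of 0.31 (SE 0.065, peak ZT 18.5, adjusted p = 0.0083; 19.3% of all genes), from -0.97, -0.93 and -0.61 at ZT 8 to -0.56, -0.19, -0.07 and 0.10 at ZT 16. That Klf7 call was lost with the length slope in the model (0.26, adjusted p = 0.14). Klf3, Klf4, Klf5 and Klf12 were not called rhythmic by the cosine in any of the 15 groups. No member was called in KO mice on TRF (6.2% of kept genes), old mice on ALF (1.41%), RE-RE mice of 10 weeks (0.588%) or Br-RE mice of 26 weeks (0.69%), where 3216, 1188, 649 and 1672 kept genes had an unadjusted p under 0.05 by limma.

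Levels on TRF were compared with those on ALF within each genotype. In WT mice 1 of 6 kept members was called (41% of kept genes) and 1 of the other 4 (32.9% of all genes): Klf13 rose by 0.31 (SE 0.073, adjusted p = 0.00087) and Klf11 by 0.48 (SE 0.16, 0.018). In WT mice 6 of 8 endothelial markers (median 0.36, summed levels of 41.1 to 99.3 FPKM on TRF and 22.3 to 87.2 FPKM on ALF) and 4 of 5 smooth muscle and pericyte markers (median 0.62, 109.6 to 177 FPKM on TRF and 85.9 to 184 FPKM on ALF) were also higher on TRF; their part in the result was not tested. The Klf11 rise was called in 2 of the 4 fits that each leave out 1 mouse per time. In Mu-RE mice 1 of 6 was called (16.9%) and 2 of 4 (12.3%): Klf6 fell by 0.28 (adjusted p = 0.035), Klf7 by 0.54 (0.0032) and Klf12 by 0.53 (0.037). In KO mice 1 of 6 (14.2%) and 1 of 4 (10%) were called: Klf6 fell by 0.39 (0.047) and Klf7 by 0.43 (0.039). In old mice 0 of 6 and 0 of 4 were called (0.142% and 0.0486%; 1716 kept genes had an unadjusted p under 0.05 by limma). The Klf6 call in KO mice was lost without the filter, with libraries centred on their median and with the length slope (adjusted p = 0.058, 0.067 and 0.17). With the length slope in the model the Klf7 fall in Mu-RE mice kept its call (-0.39, adjusted p = 0.022), and the other falls did not: Klf6 (-0.25) and Klf12 (-0.24) in Mu-RE mice, Klf6 (-0.27) and Klf7 (-0.26) in KO mice.

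Responses to TRF differed between genotypes for 5 members. The difference from the WT response was -0.44 for Klf3, -0.50 for Klf6, -0.41 for Klf13 and -0.58 for Klf7 in KO mice, and -0.41 for Klf3, -0.40 for Klf6, -0.34 for Klf13, -0.70 for Klf7 and -0.86 for Klf12 in Mu-RE mice. Their adjusted p-values ran from 0.0049 to 0.034 by limma, in fits that share the WT mice. Among the kept members that is 3 of 6 in each genotype, where 27.5% (KO) and 34.8% (Mu-RE) of kept genes were called, and among the other 4 it is 1 in KO (19.7% of all genes) and 2 in Mu-RE mice (26.6%). In old mice 0 members were called (2.1% of kept genes, 1.03% of all genes, 1856 kept genes with an unadjusted p under 0.05), and Klf13 had -0.26 (adjusted p = 0.16). All 9 differences were lost with the length slope in the model, where they ran from -0.34 for Klf6 in Mu-RE to -0.07 for Klf12 in Mu-RE mice. The slope went from -0.033 on ALF to 0.016 on TRF in WT mice, from -0.0023 to -0.045 in KO mice and from 0.012 to -0.021 in Mu-RE mice, so it moved in opposite directions in WT and in both other genotypes. The cause was not tested.

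**Figure D5:**
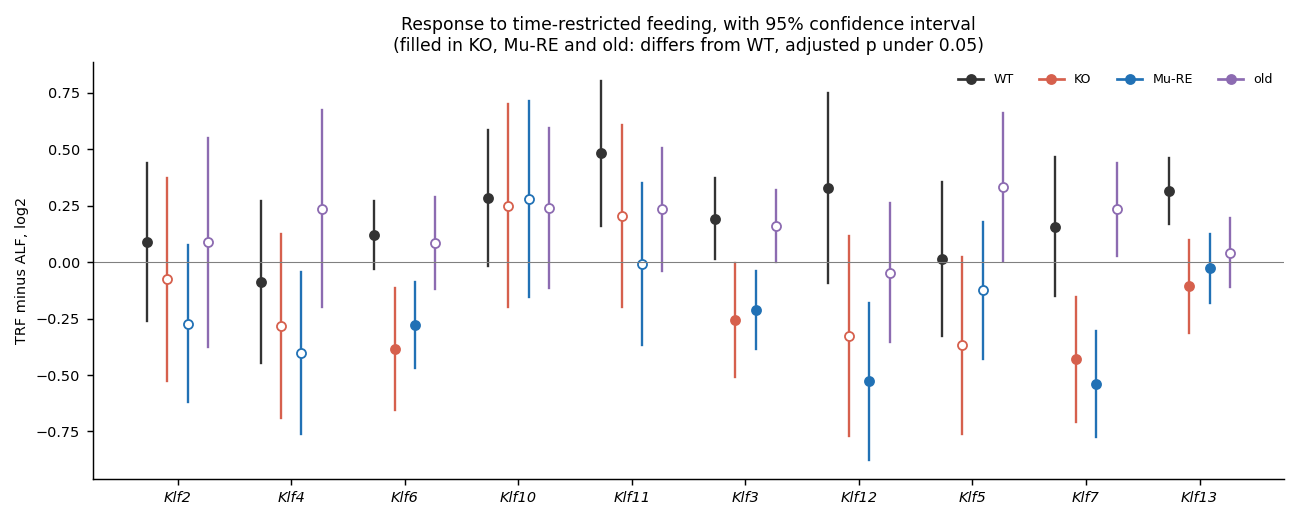
Change from ALF to TRF (log2, vertical axis) of each member in WT, KO, Mu-RE and old mice, with bars for the 95% confidence interval. WT points are all filled, and in the other 3 groups a filled point marks a response that differs from that of WT at an adjusted p under 0.05. Klf3, Klf6, Klf7 and Klf13 lie below WT in both KO and Mu-RE mice.

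With age, WT mice of 26 weeks had lower levels than WT mice of 10 weeks for 4 members. Klf6 was lower by -0.34 (SE 0.085, adjusted p = 0.0023 by limma), from lowest, median and highest values of 2.34, 2.92 and 3.62 to 1.88, 2.45 and 3.50. Klf3 was lower by -0.29 (0.022), Klf7 by -0.30 (0.016) and Klf11 by -0.44 (0.049). That is 2 of 6 kept members (37% of kept genes) and 2 of the other 4 (31% of all genes). Only the Klf6 difference kept its call under each alternative run, and the Klf11 difference was lost without the deepest library, WT of 10 weeks replicate 1 (adjusted p = 0.062). In the same comparison 8 of 8 endothelial markers were lower, with a median of -0.44 and summed levels of 22.3 to 87.2 FPKM at 26 weeks against 51.8 to 93.3 FPKM at 10 weeks, beside 4 of 5 smooth muscle and pericyte and 3 of 4 fibroblast markers; their part in the result was not tested. Age and any other difference between these 2 groups cannot be told apart. In old mice against WT of 26 weeks, 0 of 10 members were called on ALF (24.2% of kept genes, 21.2% of all) or on TRF (9.84%, 9.69%), and the members nearest to the threshold were Klf11 (0.36, adjusted p = 0.055) and Klf7 (-0.26, 0.060) on ALF. There 3625 and 2235 kept genes had an unadjusted p under 0.05. With the length slope Klf7 passed on ALF (-0.31, adjusted p = 0.020) and Klf12 on TRF (-0.38, 0.040).

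Without the 9 libraries that stood apart, 61 of the 62 calls on members were kept, the exception being Klf11 in WT mice of 26 against 10 weeks (-0.44, adjusted p = 0.062 by limma). Another 10 results passed that had not passed with all libraries. On TRF against ALF in WT mice these were Klf3 (0.24, adjusted p = 0.012) and Klf12 (0.48, 0.0070), and in Mu-RE against KO mice of 26 weeks Klf4 (-0.51, 0.016) and Klf5 (-0.44, 0.040). Klf7 passed in RE-RE against Br-RE mice of 10 weeks (0.23, 0.030). In old mice against WT of 26 weeks Klf11 passed on ALF (0.37, 0.047) and Klf12 on TRF (-0.51, 0.017). The response to TRF differed from that of WT for Klf12 in KO mice (-0.95, 0.00089) and for Klf13 in old mice (-0.31, 0.044). The rhythm of Klf6 in WT of 10 weeks also passed (amplitude 0.34, 0.029), as it did without WT of 10 weeks replicate 1 alone.

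Members varied together within groups in part. Over the residuals of the 352 libraries from their group and time means, Klf2 and Klf4 had a Pearson correlation of 0.82, Klf2 and Klf6 of 0.70, and Klf4 and Klf6 of 0.64, while Klf2 and Klf12 had -0.056. With the mean of the immediate early genes, the correlation was 0.62 for Klf2, 0.58 for Klf4 and 0.48 for Klf6. The highest correlation of any member with the mean of the endothelial markers was 0.52, for Klf3. Klf7 and Klf12, both low and long, had 0.51. These are descriptions across libraries that share depth and tissue for both genes.

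Over the 90 means of group and time, the genes whose pattern was most like a member differed between members. For Klf2 they were Id1 (Pearson r = 0.79), Klf4 (0.77) and Rhob (0.69), and for Klf6 Nr4a1 (0.76), Tob2 (0.75) and Per1 (0.70). Klf11 was most like Klf10 (0.80), Txnip (0.80), a thioredoxin-binding brake on glucose uptake, and Cpt1a (0.73), the carnitine palmitoyltransferase of fatty acid import. In WT mice on TRF Txnip peaked at ZT 7.5 with an amplitude of 0.95, Cpt1a at ZT 8.5 with 0.77 and Angptl4, an inhibitor of lipoprotein lipase and the second gene in likeness to Klf10 (0.62), at ZT 8.0 with 1.90. Klf13 was most like Cntfr (0.84), a receptor of ciliary neurotrophic factor, Acvr1b (0.82), an activin receptor, and Trp53bp2 (0.82). Cntfr differed between KO and WT by -2.10, -3.10 and -3.49 at 10 weeks, 26 weeks and on TRF, Acvr1b by -0.71, -1.35 and -1.48, and Trp53bp2 by -0.26, -0.33 and -0.60. Pairs of genes in such a mean share libraries and depth. The like genes were chosen by these same 90 means, which hold the KO and WT groups and the times on TRF. Their KO against WT differences and peak times therefore follow in part from the choice and are no independent support.

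Partners and upstream genes of the family were counted from lists chosen with earlier results known. Of 12 corepressors and coactivators, 5 rose and 2 fell in KO against WT at 10 weeks, 5 and 3 at 26 weeks, and 2 and 5 on TRF, beside 41.8%, 46.3% and 51.8% of all kept genes called in either direction. The acetyltransferase Ep300 (-0.39, -0.34 and -0.97) fell in all 3, beside medians over the list of 0.01, 0.01 and -0.097. Of 10 TGF-beta and SMAD genes, 7 fell and 1 rose at 10 weeks, 3 and 1 at 26 weeks, and 6 and 0 on TRF, where Smad3 (-0.70) and Smad7 (-0.63) had the largest differences; the list's medians were -0.24, -0.07 and -0.31. Of 6 tested genes of the MEK5, ERK5 and MEF2 pathway, 2, 3 and 5 fell and 0 rose, among them Mef2c by -0.37 and Map2k5 by -0.31 on TRF. Of all kept genes, 21.6%, 22% and 26.9% were called lower in KO in these comparisons. The length slope was not added to the model for the genes of these lists. Of 6 other tested members of the KLF and SP family, 1 fell at 10 weeks (Sp1, -0.14), 0 changed at 26 weeks and 1 fell on TRF (Sp2, -0.31). On TRF in WT mice, 7 of the 10 TGF-beta and SMAD genes were rhythmic, beside 37.8% of all kept genes. There 7 of 8 endothelial markers, 6 of 12 corepressors and coactivators and 0 of 4 macrophage markers were also rhythmic. In Mu-RE mice on TRF, 3 of the 10 TGF-beta and SMAD genes were rhythmic. Skil, Smad7, Smad3 and Tgfb1 peaked from ZT 17.3 (Skil) to ZT 3.9 (Tgfb1) in WT mice on TRF. Klf10 peaked there at ZT 8.6 and Klf11 at ZT 8.2. A link between these rhythms was not tested.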

How the data were processed

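RNA of whole tibialis anterior muscle was sequenced in 352 mice of 15 groups. The authors deposited log2 FPKM values of 14413 genes. The submitters' processing notes name HISAT2 2.1.0 and GRCm38, with limma 3.44.1, edgeR 3.30.0, featureCounts 1.6.2, FastQC 0.11.8 and Trim Galore 0.5.0, and give no roles. Tests on the table showed a pseudocount of 0.01 FPKM and centring: gene means are equal, to within 1e-05, between the sexes and between Br-RE with RE-RE libraries and the other libraries of their age. Sexes were therefore not compared, nor Br-RE and RE-RE levels with other genotypes. Low values were whole reads (within 0.1) for a median of 95.3% of values per library, which gave the estimated depth; depth limits the 4 members under 1 FPKM most.

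Levels and 24 h rhythms were fitted with limma 3.58.1 (trend and robust) in R 4.3.3, with a level, cosine and sine per group and a term for sex, on 9862 genes with a mean of at least 1 FPKM. Tests were two-sided for levels and F tests for rhythms, Benjamini-Hochberg adjusted over all genes fitted, with calls at 0.05. Members under the filter were taken from the same fit of all 14413 genes. The models were tested on simulated data. Tables and figures were made with Python 3.11.15, pandas 2.3.3, numpy 2.4.6, matplotlib 3.10.9 and data.table (version 1.17.8). Promoters came from RefSeq, and gene positions and exon lengths from GENCODE. All 10 members are named, of each list at most the 4 called genes of largest difference per comparison, and for likeness the 3 genes of highest correlation over 90 means. Members and lists were chosen with earlier results of these data known. Alternatives were the log scale, the filter, sex, centring, a gene length slope, a replicate block, times as a factor, left-out mice and left-out libraries. Removal of the 9 libraries that stand apart and of Br-RE replicate 3 of 26 weeks was chosen after seeing the data.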

Additional observations from a re-analysis of the deposited data

Results flagged for a closer look

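For 5 Krüppel-like factors the change from ALF to TRF differed from that of WT mice of 26 weeks by limma's test of the difference itself. In KO mice the difference was -0.4975 for Klf6, the stress gene (SE 0.16, adjusted p = 0.015), -0.4431 for Klf3 (0.027), -0.413 for Klf13 (0.015) and -0.5843 for Klf7 (0.034). In Mu-RE mice it was -0.4006 for Klf6 (0.0085), -0.405 for Klf3 (0.0081), -0.3418 for Klf13 (0.0092), -0.697 for Klf7 (0.0049) and -0.8571 for Klf12 (0.014). Both sets of values use the same WT mice. With the gene length slope in the model none of the 9 was called: the KO differences became -0.32 for Klf6, -0.11 for Klf3, -0.23 for Klf13 and -0.19 for Klf7, and the Mu-RE differences -0.34 for Klf6, -0.21 for Klf3, -0.24 for Klf13, -0.30 for Klf7 and -0.07 for Klf12. The cause was not tested.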

How the results depend on the processing

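Of 62 calls on members, 16 passed under each alternative run: Klf13 in 8 level comparisons, Klf6 in 4, and the rhythms of Klf13 in Br-RE mice of 10 weeks, Klf10 in WT mice on TRF and Klf11 in WT and Mu-RE mice on TRF. No call changed direction. Calls kept were 61 with log2(FPKM + 1), 59 without the filter, 60 without the term for sex, 58 with libraries centred, 38 with the length slope, 44 of 51 with the times as a factor and 61 without the 9 libraries that stand apart. The replicate number as a block kept 40 of 49. Same-numbered mice had median correlations of -0.05 to 0.16, and between 0 and 6 mice of a comparison matched their own number best. The highest count was 6 of 23, in Mu-RE against KO mice of 26 weeks. Whether some numbers mark a shared batch was not tested, and the labels give no pairing. Among the calls lost with the block were the Klf11 rhythm difference between TRF and ALF in Mu-RE mice (1.16, adjusted p = 0.065) and Klf12 in RE-RE against Br-RE mice of 26 weeks (0.94, 0.069). Leaving out 1 mouse per time kept 30 to 45.

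Counts of kept members called that changed by over 1.5 times were as follows, and the cause was not tested. With the length slope, the feeding response differences went from 6 to 0, Mu-RE against KO at 26 weeks from 1 to 2, TRF against ALF in KO and in Mu-RE from 1 to 0 each, WT at 26 against 10 weeks from 2 to 1, rhythms in old mice on TRF from 1 to 2 and in WT of 10 weeks from 2 to 1. Without the filter, TRF against ALF in KO gave 0 and rhythms in WT of 10 weeks 1. With libraries centred, TRF against ALF in KO gave 0. With the replicate block, TRF against ALF in KO gave 0, WT at 26 against 10 weeks 1 and rhythm differences 0 in place of 1. Without the 9 libraries, Mu-RE against KO at 26 weeks and TRF against ALF in WT gave 2 each in place of 1. With the times as a factor, TRF against ALF in Mu-RE gave 2, and rhythmic members were 3 in Br-RE of 10 weeks (from 1), 2 in Mu-RE on TRF (from 0), 2 in old mice on ALF (from 0), 1 in RE-RE of 10 weeks (from 0), 1 in WT on TRF (from 3) and 0 in Mu-RE of 10 weeks, RE-RE of 26 weeks, WT of 26 weeks and old mice on TRF (from 1 each).

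Leaving out 1 mouse per time gave 0 to 7 feeding response differences; in levels 1 to 2 for Mu-RE against KO at 26 weeks, Mu-RE against WT at 10 weeks, RE-RE against Br-RE at 26 weeks and WT at 26 against 10 weeks, 1 to 3 for Mu-RE against KO on TRF, 0 to 1 for TRF against ALF in KO and for old mice against WT on ALF, 0 to 2 for TRF against ALF in WT and 0 in Mu-RE; and in rhythms 1 to 2 in Br-RE of 10 weeks, 0 in Mu-RE of 10 weeks and RE-RE of 26 weeks, 0 to 1 in Mu-RE on TRF, old mice on TRF, WT of 10 weeks and WT of 26 weeks, 1 to 3 in WT on TRF, and 0 to 2 rhythm differences.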
